A study of Bos taurus with 23 samples.

Results

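The genes described here are 65 genes of bovine endometrium that were already expressed in culture medium and whose mean level was at least 8 times higher with interferon tau. They were chosen by their measured levels: a mean of at least 1 CPM in the Control explants (CPM is a gene's read count scaled to a library total of 1000000), a mean with interferon tau at least 8 times as high, and a higher level with interferon tau in each of the 6 uteri that gave both explants. Of the 18897 genes in the count table, 13451 reached the Control level, 68 of these also reached the 8-fold ratio, and all 68 were higher in the 6 uteri. The rule sets 3 of the 68 aside by identifier, which leaves the 65. Because the comparison of interferon tau with medium chose these genes, its values are given as a description and without a test.

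The explants were punched from intercaruncular endometrium, the gland-bearing uterine lining between the sites of placental attachment, from bovine uteri collected at mid luteal stage, and the treatments lasted 6 h. Control explants had medium alone (n = 6) and IFNT explants had the ovine recombinant protein added, 100 ng per mL (n = 6). The other explants shared their well with a Day 15 conceptus, the embryo with its membranes, that had grown from a transferred blastocyst of in vivo origin (AI, n = 4) or of in vitro origin (IVF, n = 7). The AI conceptuses measured from 21 to 31 mm, with 3 females and 1 male, and the IVF conceptuses from 8 to 54 mm, with 2 females and 5 males. Every title carries a number, read here as that of the uterus: Control and IFNT explants came from numbers 1, 2, 3, 4, 5 and 10, AI explants from 1 to 4, and IVF explants from 1, 2, 3, 4, 5, 7 and 10. All 4 AI titles share 1 further code and the 7 IVF titles carry 5, of which 2 codes are each on 2 titles. What that code marks is not given in the labels. The p-values below measure the spread between these explants. Unless a fit pairs explants by uterus number, it treats explants of 1 uterus as independent, which mixes the spread between and within uteri. Deviations from group means correlated between explants of the same number, with a median of 0.51, against -0.08 for different numbers.

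The elongating conceptus of ruminants secretes interferon tau, a type I interferon, and through it pregnancy is recognised in cattle and sheep. Type I interferons bind a receptor made of the subunits IFNAR1 and IFNAR2. Signalling from this receptor switches on interferon-stimulated genes. Many products of such genes block viral replication, sense nucleic acids or present antigen, and others limit the signal itself. Which of these roles the 65 genes have is not given here, because the count table names genes by Ensembl identifier and the gene table used here matched 0 of the identifiers to a symbol. The 65 genes are therefore numbered as members 1 to 65, from the highest to the lowest ratio of mean IFNT to mean Control CPM. Member 1 is ENSBTAG00000009768, which had the highest ratio, and member 2 is ENSBTAG00000016061, which had the highest level with IFNT.

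Total counts lay between 19461678 and 36730378 per library. Every member had at least 5 reads in each Control library, 36 in each IFNT library and 23 in each conceptus library, and 2 members had under 10 reads in some Control library. The labelled tissue could not be checked against marker genes without symbols. An explant holds several cell types, and more cells of a type cannot be told apart from more RNA per cell.

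The 65 genes held a small part of the reads in medium alone and a far larger part with IFNT. Their summed counts took 0.112% ± 0.0137 of a Control library (SD, n = 6) and 3.101% ± 0.986 of an IFNT library (SD, n = 6). The Control libraries lay between 0.0952% and 0.132%, with a median of 0.109%, and the IFNT libraries between 1.63% and 4.33%, with a median of 3.0%. The lowest IFNT library was thus far above the highest Control library. In Control the members' mean levels ran from 1.09 to 167 CPM with a median of 8.62 CPM, 36 of the 65 were under 10 CPM and 2 were at or over 100 CPM. With IFNT they ran from 19.8 to 6067 CPM with a median of 248 CPM, 45 were at or over 100 CPM and 7 were at or over 1000 CPM. A few members carried much of the total: with IFNT, member 2 alone held 19.6% of the reads of the 65 genes and the 10 with the most reads held 54.3%.

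**Figure D1:**
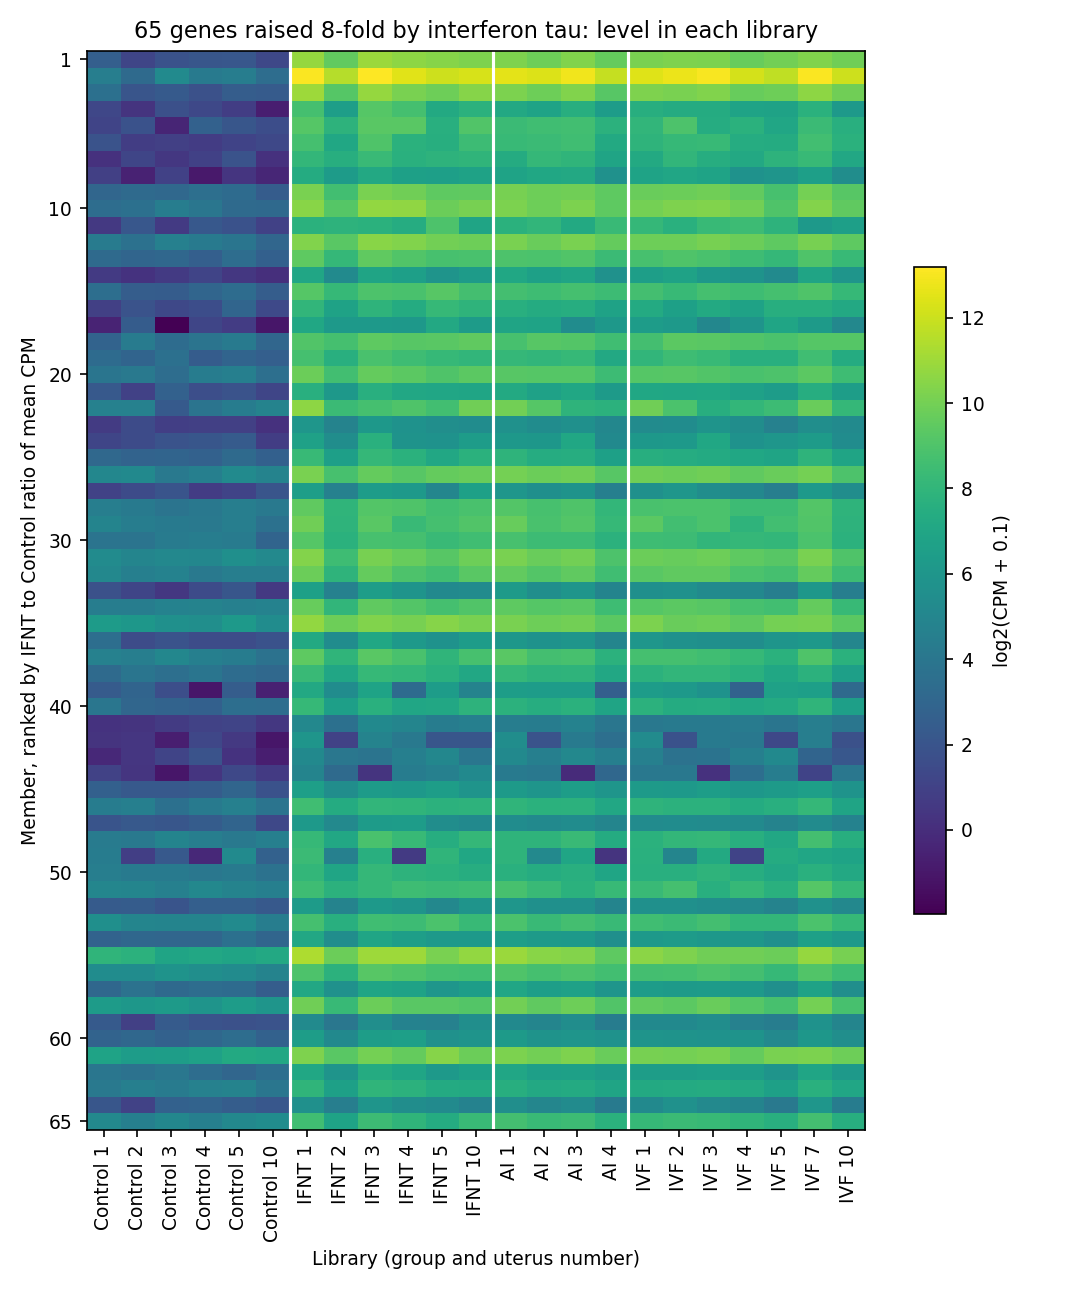
Heat map of log2(CPM + 0.1) for the 65 genes (rows, ranked by the ratio of mean IFNT to mean Control CPM) in the 23 libraries (columns, by group and uterus number, with white lines between groups). The Control columns are dark for nearly all genes, the IFNT, AI and IVF columns are bright, and isolated dark cells in the treated columns recur in the same uterus for members 39, 42, 44 and 49.

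The ratios formed a continuum with no gap at 8. They were at or over 64 for 12 members, from 32 to 64 for 10, from 16 to 32 for 20 and from 8 to 16 for 23, with a median of 23.3 over the 65. The steepest responders began lowest: the 12 at the top had a median Control level of 3.57 CPM and a median IFNT level of 660 CPM, and the 23 at the bottom had medians of 12.5 and 155 CPM. A lower Control level raises the ratio by construction. Members 62 to 65, just inside the limit, had ratios of 8.76, 8.48, 8.20 and 8.08. The 4 genes just outside it had ratios of 7.84, 7.42, 7.21 and 7.12 and met the rest of the rule.

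Member 1 had the steepest difference. Its Control libraries lay between 2.22 and 6.17 CPM with a median of 3.83 CPM, and its IFNT libraries between 741 and 1960 CPM with a median of 1489 CPM. The ratio of the means was 383, and no IFNT library came near a Control library. Its AI libraries were at 1217, 934, 1265 and 796 CPM in uteri 1 to 4, and its IVF libraries lay between 812 and 1277 CPM with a median of 1145 CPM. Every treated library therefore held more than 100 times the highest Control level of this gene.

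Member 2 held the most reads of the 65 genes under each treatment. Its Control libraries lay between 9.71 and 38.9 CPM with a median of 20.9 CPM. Its IFNT libraries lay between 2952 and 9419 CPM with a median of 5515 CPM, a ratio of means of 294. The AI libraries of uteri 1 to 4 were at 6203, 5344, 7558 and 3669 CPM, and the IVF libraries lay between 3438 and 8783 CPM with a median of 5691 CPM. The IFNT, AI and IVF libraries of this gene overlapped widely. Without it, the other 64 genes took 2.49% of the counts with IFNT, 2.21% with AI and 2.10% with IVF.

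Members 55, 61, 58 and 35 had the highest Control levels, and their ratios were 10.4, 8.77, 9.14 and 20.6. Member 55 lay between 120 and 250 CPM in Control, with a median of 142 CPM, and between 900 and 2616 CPM with IFNT, with a median of 1859 CPM. Member 61 lay between 86.1 and 150.5 CPM in Control, with a median of 110 CPM, and between 630 and 1408 CPM with IFNT, with a median of 962 CPM. The IFNT and Control libraries of both genes were fully apart. Member 35 lay between 42.8 and 82.6 CPM in Control, with a median of 57.97 CPM, and between 907 and 1724 CPM with IFNT, with a median of 1193 CPM.

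The response to IFNT was found in all uteri but differed in size between them. The median member was 33.4-, 11.8-, 32.02-, 21.6-, 15.6- and 28.5-fold higher than in the matching Control explant for uteri 1, 2, 3, 4, 5 and 10. Uterus 2 was the weakest, since 45 of the 65 members had their smallest response there and 19 responded less than 8-fold. In uterus 1 no member responded less than 8-fold. The weak response of uterus 2 lay on the IFNT side: the 65 genes took 0.113% of its Control library, near the Control median, and 1.63% of its IFNT library, the lowest of the 6.

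**Figure D2:**
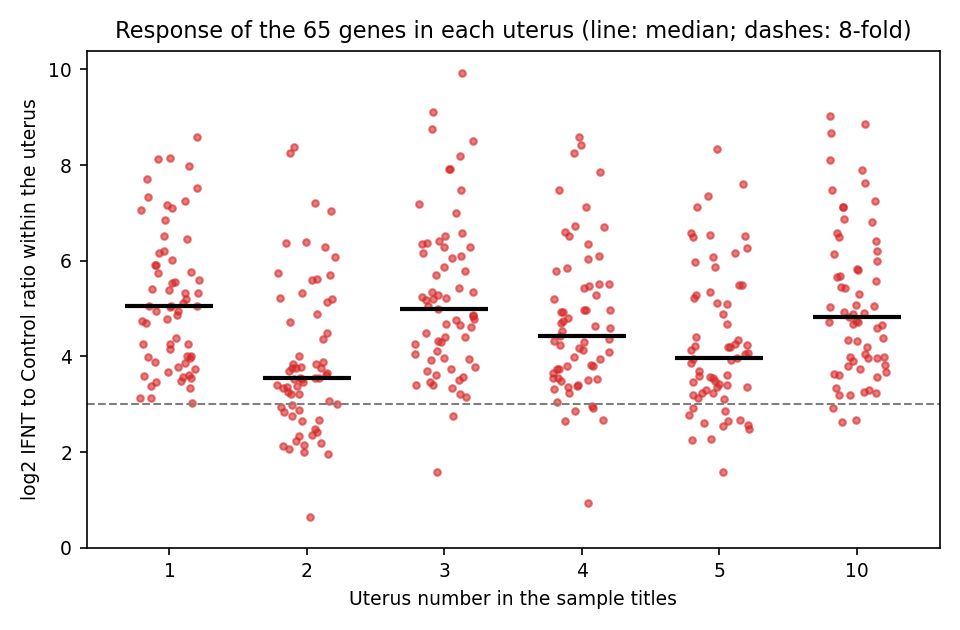
Each point is 1 of the 65 genes, the x axis gives the uterus number, and the y axis gives the log2 ratio of IFNT to Control within that uterus, with 0.5 added to each count. Black lines are medians, 5.06, 3.56, 5.00, 4.43, 3.97 and 4.83 in uteri 1, 2, 3, 4, 5 and 10, and the dashed line marks 8-fold.

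Because these explants also chose the genes, the rule was applied to 5 uteri at a time as well, and the chosen genes were read in the uterus left out. Between 63 and 68 genes were chosen each time, and 61 to 65 of these were among the 65. In the uterus left out, the median chosen gene had a log2 ratio of IFNT to Control of 5.06, 3.56, 5.02, 4.57, 3.94 and 4.89 in uteri 1, 2, 3, 4, 5 and 10. These medians are close to those of the 65 genes in the same uteri, which follows from the near-complete overlap of the sets and is no separate support. All chosen genes were higher with IFNT in uteri 2, 3, 4 and 10, and all but 1 were in uteri 1 and 5. The rule already required this of every chosen gene among the 65, so the counts were nearly fixed in advance and are no support.

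A conceptus raised these genes as well, whether of in vivo or in vitro origin. They took 2.77% ± 0.664 of the counts with AI (SD, n = 4), at 3.33%, 2.71%, 3.19% and 1.86% in uteri 1 to 4. With IVF they took 2.70% ± 0.633 (SD, n = 7), between 1.98% and 3.67% with a median of 2.92%. No conceptus library came near the Control libraries, as the plot of shares by uterus shows. The median ratio of mean levels to Control was 20.4 with AI and 18.0 with IVF, beside 23.3 with IFNT. With AI 61 members and with IVF 58 members stood at 8-fold or more over Control, and the lowest ratios were 6.87 for member 63 with AI and 6.65 for member 60 with IVF. These comparisons share the Control explants that helped to choose the genes, and those explants were therefore selected as low.

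**Figure D3:**
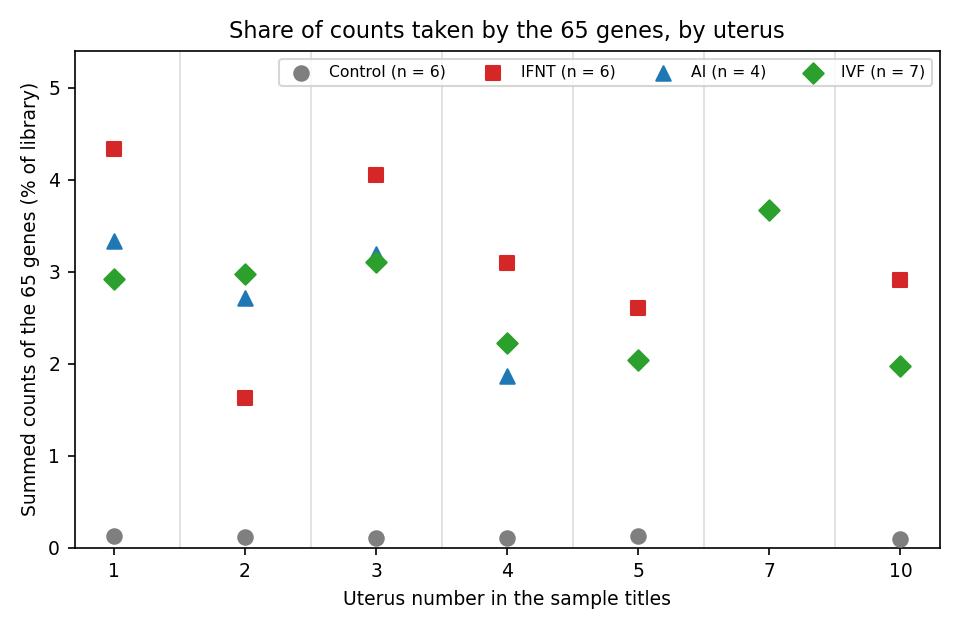
Summed counts of the 65 genes as a percentage of all counts of a library (y axis), by uterus number (x axis). Each symbol is 1 library of the Control, IFNT, AI or IVF group. IFNT is the highest symbol in uteri 1, 3, 4, 5 and 10 and lies below both conceptus libraries in uterus 2, and uterus 7 has an IVF library alone.

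In edgeR's quasi-likelihood test over all genes, 64 of the 65 members were called higher with AI than in Control (Benjamini-Hochberg adjusted p under 0.05), where 2.75% of the 15227 genes tested were. With IVF 64 members were called higher, where 2.92% of all genes were, and none was called lower in either comparison. The fitted log2 fold changes had a median of 4.45 with AI, from 2.88 to 8.24, and of 4.30 with IVF, from 2.88 to 8.32, against medians of 0.00 and 0.01 over all genes tested. On that scale member 1 rose by 8.24 ± 0.33 (SE) under AI and by 8.30 ± 0.33 (SE) under IVF, with edgeR's adjusted p at 1.32e-13 and 7.52e-14. Member 2 rose by 8.20 ± 0.48 (SE) under AI and by 8.32 ± 0.48 (SE) under IVF, with edgeR's adjusted p at 2.25e-11 and 1.11e-11. All 11 conceptus libraries lay above all 6 Control libraries for 62 members, where this held for 1.79% of all genes tested. The Control libraries, selected as low by the rule, helped this count and the calls and p-values above. All 6 IFNT libraries lay above all 6 Control libraries for 62 members too, a count that the choice of genes shaped, where 2.09% of all genes tested did.

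The member not called with AI or IVF was member 49 in both comparisons. Its fitted change was 3.21 ± 1.19 (SE, log2) for AI and 3.39 ± 1.13 (SE, log2) for IVF, with edgeR's adjusted p at 0.206 and 0.134. Its level varied widely between uteri, as the plot of 4 members by uterus shows. With the uterus number as a replicate block (a paired fit), it was called in both, at 3.54 ± 0.46 (SE) and 3.56 ± 0.42 (SE), with edgeR's adjusted p at 4.94e-05 and 1.29e-05. The other alternatives run gave it an adjusted p of up to 0.491 for AI and 0.273 for IVF. Among them DESeq2 called it for IVF, at a DESeq2 adjusted p of 0.0182, but not for AI, at 0.0894. With the replicate block, all 65 members were called higher in each comparison, where 7.45% of all genes were with AI and 5.21% with IVF.

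Levels with a conceptus were close to those with IFNT and mostly a little lower. The ranking of the 65 genes by level was nearly the same in the 3 treatments, with Spearman's rho of 0.989 between IFNT and AI, 0.989 between IFNT and IVF and 0.997 between AI and IVF. Between the Control mean and the mean over the conceptus libraries rho was 0.700. These are correlations across genes, which are not independent replicates and which share libraries. The mean over the 11 conceptus libraries was below the IFNT mean for 55 members and above it for 10, and the log2 ratio had a median of -0.26 and ran from -1.151 to 0.18. The median over all genes tested was -0.05. The IFNT explants were selected as high by the rule, which pushes this ratio down. In the test itself edgeR called 0 members and 0% of the 15227 genes between AI and IFNT, with 2 members and 1495 genes at an unadjusted p under 0.05, and DESeq2 called 0 members and 24 genes. With the replicate block, which pairs explants by uterus, edgeR called 1058 genes between AI and IFNT, 747 higher and 311 lower, and 2 members, both lower. Between IVF and IFNT edgeR also called 0 members and 0% of genes, with 6 members and 866 genes at an unadjusted p under 0.05, and DESeq2 called 0 members and 8 genes. The paired fit of that comparison called 0 members and 3 genes.

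**Figure D4:**
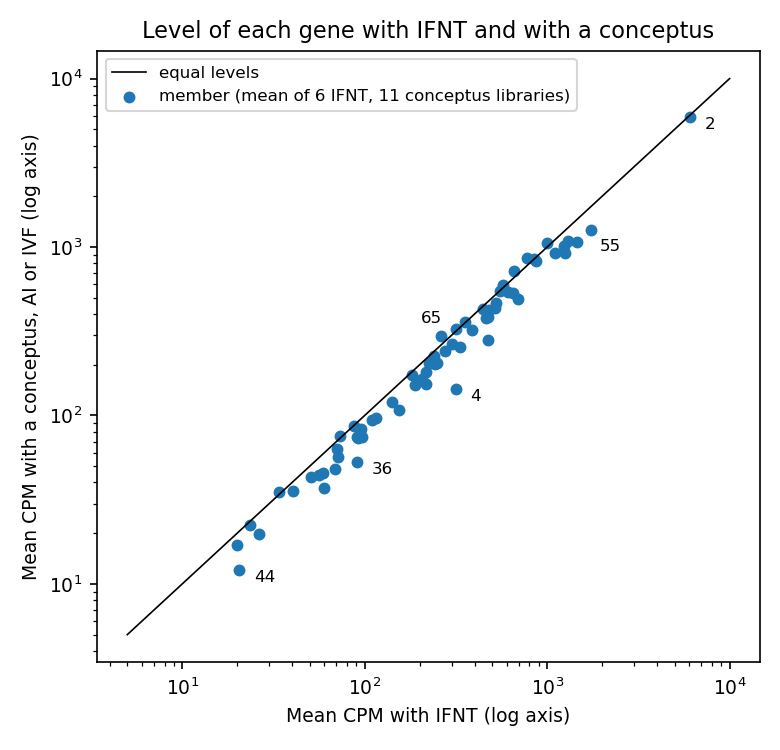
Mean CPM of each of the 65 genes with IFNT (x axis, mean of 6 libraries) and with a conceptus (y axis, mean of the 4 AI and 7 IVF libraries), both on log axes, with the line of equal levels. Most points lie just under the line, members 4, 36 and 44 lie farthest below it and member 65 lies above it.

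The direction depended on the uterus. Within uteri 1, 3, 4, 5 and 10, between 55 and 64 of the 65 members were lower with each conceptus than with IFNT, by a median of -0.36 to -0.75 on the log2 scale. In uterus 2 all 65 were higher with the AI conceptus, by a median of 0.72, and all but 5 were higher with the IVF conceptus, by a median of 0.78. The IFNT explant of that uterus is the one with the weak response, while its AI and IVF libraries, at 2.71% and 2.98% of counts, were near the other conceptus libraries. Without all libraries of uterus 2 the median log2 ratio was -0.39, and without its IFNT library alone it was -0.38.

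Member 4 stood out as the lowest with a conceptus relative to IFNT. Its Control libraries lay between 0.522 and 3.23 CPM with a median of 1.96 CPM, and its IFNT libraries between 91.5 and 578 CPM with a median of 323 CPM. Its AI libraries were at 147, 114, 186 and 86.6 CPM in uteri 1 to 4, and its IVF libraries lay between 76.7 and 213.5 CPM with a median of 163 CPM. The groups overlapped, since the IFNT libraries of uteri 2 and 5, at 91.5 and 155 CPM, lay within the conceptus range. Against IFNT its fitted log2 difference was -1.24 ± 0.47 (SE) for AI and -1.08 ± 0.39 (SE) for IVF, with edgeR's adjusted p at 0.422 and 0.786. With the replicate block, members 4 and 35 were called lower with AI than with IFNT, at -1.42 ± 0.34 (SE) and -0.45 ± 0.13 (SE) with edgeR's adjusted p at 0.0229 and 0.0494, where 2.04% of all genes were called lower. Over the other alternatives run, member 4 had an adjusted p of up to 0.692 and member 35 of up to 0.8. In that paired fit, member 4 was no longer called without IFNT 3, IFNT 4, AI 1, AI 3 or AI 4, with adjusted p of 0.0677, 0.0631, 0.0599, 0.0701 and 0.108 by edgeR, where the number is the uterus. Member 35 kept its call when IFNT 2 or IVF 5 was left out and in none of the other cases where 1 treated library was left out. Without IFNT 2 the paired fit called 10 members lower with AI, among 398 genes called lower and 974 called in all. Without all libraries of uterus 2 it called 7 members lower, among 201 genes called lower and 668 called in all.

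Members 36 and 44 came next, at 53.2 CPM with a conceptus against 90.9 CPM with IFNT and at 12.1 against 20.6 CPM. At the other end, members 65, 26 and 58 had slightly higher means with a conceptus, at 295 against 261 CPM, 856 against 775 CPM and 724 against 662 CPM. For member 65 the IFNT libraries lay between 113 and 372 CPM with a median of 283 CPM, the AI libraries were at 406, 318, 341 and 209 CPM, and the IVF libraries lay between 189.5 and 409 CPM with a median of 287.5 CPM. These ranges overlapped almost entirely.

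The 11 conceptus libraries played no part in choosing the genes. Most of them came from the uteri whose Control and IFNT explants did choose the genes. The fits by origin and by sex also took their spread from all 23 libraries. Comparisons among the conceptus libraries are therefore not fully independent of the choice. Between AI and IVF, edgeR called 0 members and 0% of the 15227 genes tested, with 0 members and 343 genes at an unadjusted p under 0.05, and DESeq2 called 0 of either. All 4 AI titles share 1 code that no IVF title carries, so origin cannot be told apart from what that code marks. The tests here and below treat conceptuses with the same code as independent. The members' log2 fold changes of AI against IVF had a median of 0.05 and ran from -0.21 to 0.75, with a median SE of 0.29. That SE is far wider than the median difference, so small differences were not detectable. The fitted difference was -0.06 ± 0.26 (SE) for member 1 and -0.11 ± 0.38 (SE) for member 2, each with edgeR's adjusted p at 1, and both changed sign when single libraries were left out. The member with the smallest p, member 43, was at 36.9, 24.0, 34.9 and 24.2 CPM with AI and between 4.28 and 38.0 CPM with IVF, with a fitted difference of 0.75 ± 0.46 (SE) and an adjusted p of 1 by edgeR. Its AI libraries lay inside the IVF range. Within uteri the direction varied: the median log2 difference of AI from IVF was 0.25, -0.06, 0.12 and -0.28 for uteri 1 to 4. The median over members of the fitted difference turned negative without AI 1, AI 3 or IVF 10, at -0.042, -0.037 and -0.018. With the replicate block, edgeR called 0 members and 0 genes between AI and IVF. In that paired fit 0 members and 1254 genes had an unadjusted p under 0.05.

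Between explants with a male and a female conceptus, edgeR called 0 members and 0% of the 15099 genes tested, with 0 members and 1089 genes at an unadjusted p under 0.05, and DESeq2 called 0 of either. Of the 65 members, 56 had lower fitted levels with a male conceptus, with a median log2 fold change of -0.18 against 0.00 over all genes, and a range from -0.71 to 0.57. The size of that median rested on single libraries: it was -0.10 without AI 1, -0.086 without AI 4, -0.091 without IVF 5, -0.12 without IVF 10 and -0.30 without IVF 7. With the replicate block 63 members were lower, the median was -0.34 and 0 were called. In that paired fit 9 members and 1757 of the 15099 genes had an unadjusted p under 0.05, similar shares. Member 5 had the smallest p in the fit without the block, at -0.71 ± 0.40 (SE), with an adjusted p of 0.698 by edgeR. Of the 6 males 5 were IVF conceptuses and of the 5 females 3 were AI conceptuses. With origin as a further factor the median was -0.20 and 0 members were called. Most members varied together over the conceptus libraries, as described below, so the counts of 56 and 63 lower members are not counts of separate observations.

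Conceptus length, tested as a slope on log2 of the length in mm over the 11 libraries, gave 0 called members and 0% of the 13469 genes, with 1 member and 249 genes at an unadjusted p under 0.05, and DESeq2 called 0 of either, with 2 members at that p. The slopes had a median of 0.08 per doubling of length and ran from -0.50 to 0.55. The shortest conceptus, the 8 mm IVF conceptus of uterus 2, went with a share of 2.98% of counts for the 65 genes. The longest, the 54 mm IVF conceptus of uterus 7, went with 3.67%, the highest of the 11, and without it the median slope was -0.07. Member 16 had the smallest p, with a slope of 0.34 ± 0.11 (SE) and an adjusted p of 1 by edgeR.

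Under treatment, most of the 65 genes varied together from explant to explant. Over the 11 conceptus libraries the correlation of a member's log2 CPM with the mean of the other 64 had a median of 0.85, and 59 members were over 0.5. Of the other 15162 genes, 14.6% correlated with the members' mean above 0.5, with a median of -0.04. Over the 6 IFNT libraries the median for members was 0.92 and 59 were over 0.5, as were 25.8% of the other genes. Over the 6 Control libraries the median was 0.45, 28 members were over 0.5, as were 15.6% of the other genes, and 9 members were negative. These points share library depth and scaling, and the values are descriptive. The exceptions over the conceptus libraries were members 44 and 11, at -0.46 and -0.28, and members 43, 17, 18 and 51, at 0.03, 0.10, 0.28 and 0.44.

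The spread between libraries of a group had a higher median for these genes than over all genes. The median SD of log2 CPM was 0.58 over the IFNT libraries and 0.42 over the conceptus libraries, against 0.39 and 0.35 for the 13511 genes with a mean of at least 1 CPM. In Control it was 0.46 against 0.35. Over the AI and IVF libraries of uteri 1 to 4, with the group means removed, a median of 85.1% of a member's variance lay between uteri. Over all genes tested it was 73.2%. With only 2 libraries per uterus, noise alone gives a large share, so neither value is the size of a uterus effect. The further code of the IVF titles also differed between some of these uteri. The 2 explants of a uterus had different conceptuses there.

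Members 49, 44, 39, 42 and 22 differed between those 4 uteri by more than 4-fold, as did 5.42% of all genes tested. The members were picked out after their values were seen, and the first 4 are described. For member 49 uterus 4 was lowest in every group, at 0.745 CPM in Control, 1.44 CPM with IFNT, 1.13 CPM with AI and 2.03 CPM with IVF. Its uterus 1 was at 20.8, 329, 238 and 203 CPM in the same order, far above uterus 4 in each group. The counts behind the low values were 23, 37, 32 and 61 reads. Between IFNT and Control, member 49 differed by 0.93 on the log2 scale in uterus 4 and by 2.66 to 5.34 elsewhere.

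Member 44 was lowest in uterus 3 in every group, at 0.373, 1.15, 0.822 and 1.06 CPM in Control, IFNT, AI and IVF, from 12, 36, 23 and 38 reads. The IVF explant of uterus 7 was also low, at 1.99 CPM, and the other treated explants lay between 8.36 and 37.4 CPM. Member 39 was low in uteri 4 and 10: the Control explants were at 0.389 and 0.565 CPM, the IFNT explants at 9.82 and 28.1 CPM, the IVF explants at 7.01 and 9.41 CPM and the AI explant of uterus 4 at 6.03 CPM. Its other Control explants lay between 3.11 and 7.52 CPM and its other treated explants between 41.9 and 143 CPM. Its log2 ratio of IFNT to Control was 4.60 in uterus 4 and 5.58 in the other low one, against 1.59 for member 44 in uterus 3.

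Member 42 had a different pattern, with uteri that fell into a high and a low set after treatment. Its Control explants lay between 0.391 and 2.27 CPM. With IFNT it reached 62.6 CPM in uterus 1, 28.3 in uterus 3 and 17.8 in uterus 4, but 1.97 in uterus 2, 4.199 in uterus 5 and 4.18 in uterus 10. The conceptus explants split the same way: those of uteri 1, 3 and 4 lay between 12.0 and 43.7 CPM, and those of uteri 2, 5 and 10 between 2.42 and 3.64 CPM. What lies behind these patterns was not tested.

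**Figure D5:**
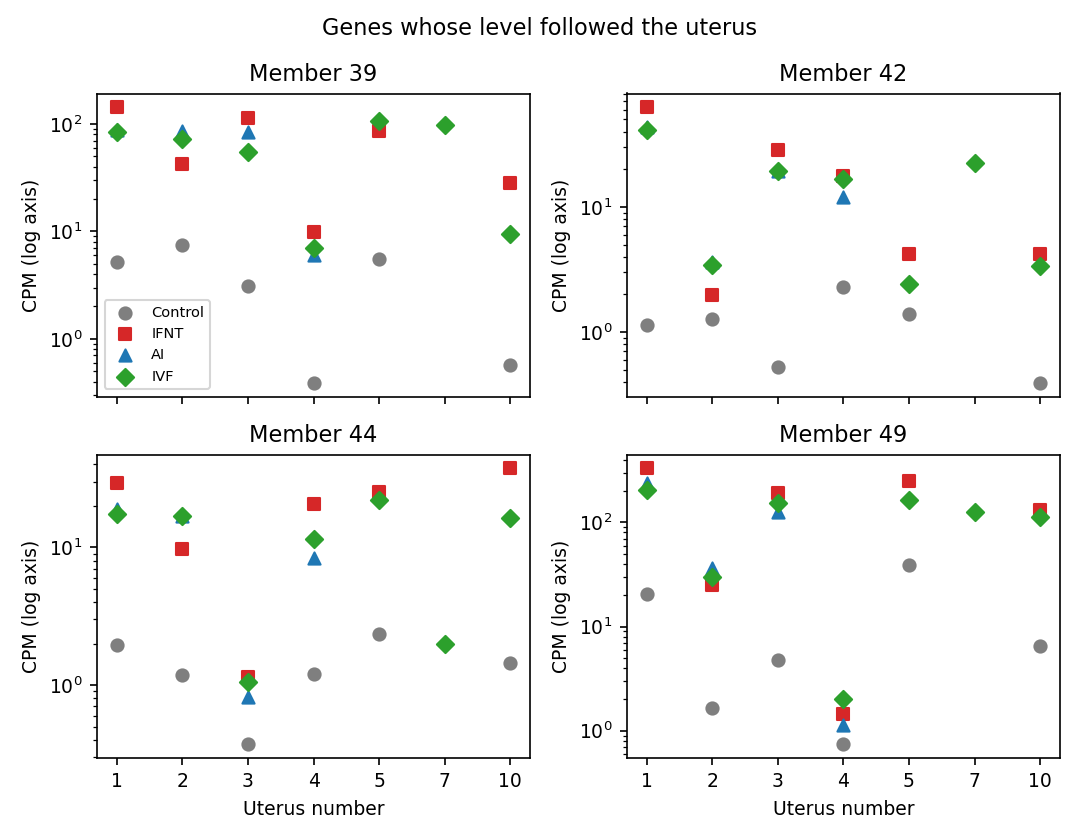
CPM (log axis) of members 39, 42, 44 and 49 by uterus number, with 1 symbol per library and a symbol for each group. Within most uteri the IFNT, AI and IVF symbols lie near each other, whereas uterus 4 is low for members 39 and 49 and uterus 3 is low for member 44.

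Beside other IFNT-raised genes, the 65 were set apart chiefly by what the rule used. A set of 205 genes met the same rule but with a ratio from 2 to under 8, and 21 genes had the 8-fold ratio but started under 1 CPM and reached at least 1 CPM. The median Control level was 8.62 CPM for the 65, 18.8 CPM for the 205 and 0.374 CPM for the 21, and the median IFNT level was 248, 64.5 and 8.90 CPM. The 205 genes together took 0.779% of the Control counts and 2.39% of the IFNT counts, so the 65 genes overtook them from 0.112% to 3.101%. The log2 ratio of conceptus to IFNT had a median of -0.26 for the 65, -0.18 for the 205 and -0.31 for the 21, with 84.6%, 79.5% and 90.5% of the genes lower with a conceptus. The median SD of log2 CPM with IFNT was 0.58 for the 65, 0.44 for the 205 and 0.83 for the 21. With a conceptus it was 0.42, 0.36 and 0.67, and in Control 0.46, 0.35 and 1.18. These differences between the sets were not tested.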

How the data were processed

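RNA from 23 bovine explants was sequenced after stranded mRNA library preparation, per the labels. The table the authors deposited holds unnormalized counts of 18897 genes, with 320 at no read. HISAT2, StringTie, edgeR and the build UMD3.1 are named in the submitters' processing notes. How reads were counted, by which strand setting and annotation release, is not given in the sources used here, so genes with near-identical or overlapping copies may share reads. Columns were matched to samples by the column name in each description. No 2 libraries agreed within sampling noise (lowest chi-square per degree of freedom 19.3 over all pairs).

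CPM was computed from column totals. Gene-level tests used edgeR 4.0.16 in R 4.3.3 (filterByExpr, TMM, glmQLFit and glmQLFTest, Benjamini-Hochberg adjustment over all genes tested, called under 0.05), fitted to all 23 libraries with 4 groups by origin or by sex, and to the 11 conceptus libraries for length. The SE is the log2 fold change divided by the root of F. The code was tested on simulated data. Likeness between members used log2 CPM with a prior count of 2.

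The title numbers pair the libraries: deviations from group means correlated in all 30 same-number pairs, from 0.15 to 0.71 with a median of 0.51, over 15227 genes, against a median of -0.08 in 166 pairs of different numbers. The labels do not spell out that the number marks a uterus. Fits without it treat explants of 1 uterus as independent. Alternatives were median-ratio scaling, no filter, DESeq2 1.42.0, the replicate block, smaller fits, and leaving libraries out.

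The members, lists and tests were chosen with earlier results of these data known. Gene lists and cell type markers fixed by symbol could not be used because 0 identifiers matched the ARS-UCD2.0 gene table. The rule for named genes then allowed 2 identifiers, the highest IFNT level and the highest ratio. Other members are given by rank, and those shown for their uterus pattern were chosen after their values were seen.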

Additional observations from a re-analysis of the deposited data

Results flagged for a closer look

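Within each group, the highest and lowest library were compared with the rest for the summed share and for 15 of the members, 64 groups of libraries in all. In 3 of them 1 library stood farther from its neighbour than Dixon's 95% limit. Chance alone gives about 1 in 20, which is about as many as were flagged. Some of the 15 members were picked after their values were seen, so that rate is not a fair reference for them. Member 3 was at 12.3 CPM in Control 1, and the next Control library was at 5.62 CPM. Member 36 was at 11.4 CPM in Control 1, and the next was at 3.64 CPM. Member 39 was at 6.03 CPM in AI 4, and the other AI libraries lay at or above 84.8 CPM. Uterus 4 was lowest for this member in the Control, IFNT and IVF groups too, at 0.389, 9.82 and 7.01 CPM.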

How the results depend on the processing

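The number of members called stayed within 1.5 times under every alternative run for AI and for IVF against Control. It lay between 62 and 65 for AI and between 63 and 65 for IVF, and without all libraries of uterus 2, an alternative chosen after seeing the data, it was 63 in both. It stayed at 0 in the comparisons of IVF with IFNT, AI with IVF, males with females and length. Between AI and IFNT the replicate block called 2 of the 65 members, both lower, where 2.04% of all genes were called lower, a similar share. Each alternative without the block called 0 members. With the block and 1 library left out, from 0 (without IFNT 3, IFNT 4, AI 1, AI 3 or AI 4) to 10 members (without IFNT 2) were called, and 7 without uterus 2. Calls of lower with AI over all genes moved too. They numbered from 29 (without AI 4) to 150 (without AI 1) where leaving out 1 library called 0 members. Without IFNT 2 they numbered 398 and without uterus 2 they numbered 201. The block changed no other call than those of members 4, 35 and 49. The set itself held 112 genes with a 4-fold limit and 42 with a 16-fold limit, and between 63 and 68 when 1 uterus was left out.

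The median log2 ratio of conceptus to IFNT of -0.26 became 0.75 when genes were chosen without uterus 2 and read in it, and lay between -0.39 and -0.68 in the other uteri read so. Leaving out single libraries gave values from -0.38 to -0.13. DESeq2 called member 49 for IVF against Control (3.38, DESeq2 adjusted p = 0.0182). The small difference between AI and IVF changed sign for member 1, from -0.20 to 0.055 over single libraries left out and 0.032 without uterus 2, and for member 2, from -0.32 to 0.053. None of these values was called, and the cause was not tested.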
